A study of Homo sapiens with 6 samples.

Results

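The cyclins, cyclin-dependent kinases (CDKs), E2F factors, RB family and their direct regulators were examined as a set of 48 genes in SRSF10 knockdown cells and control cells. The genes were taken by symbol. All 48 were found among the 60623 genes of the series, each in 1 row. The study asked how lowering SRSF10, a serine/arginine-rich splicing factor, alters the transcriptome of hepatocellular carcinoma cells. Total RNA was sequenced from 6 libraries of cells that the labels call Huh7, a line derived from human hepatocellular carcinoma. The SRSF10 knockdown group has 3 libraries, whose genotype label is SRSF10 knockdown and which the series title gives as shSRSF10, a short hairpin RNA. The control group has 3 libraries with the genotype label WT, and no label says whether these cells received a control hairpin. The treatment field holds no agent for either group. No label says that replicate libraries were separate cultures. The p-values therefore reflect the spread among these 6 libraries alone, which may be technical.

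Cyclins are the regulatory subunits of CDKs. D-type cyclins with CDK4 or CDK6, and then E-type cyclins with CDK2, phosphorylate the RB family, which frees E2F factors bound to DP partners to transcribe genes of DNA replication. In resting cells RBL2 or RBL1, E2F4 or E2F5, a DP protein and the MuvB subunits form the repressive DREAM complex, and cyclins A and B with CDK1 act later, at entry into mitosis. Cyclin D1 gain and loss of CDK inhibitors are well known in hepatocellular carcinoma.

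Levels are the FPKM values that the authors deposited, fragments normalised to gene length and to the mapped fragments of the library. SRSF10 itself stood at 10.6, 10.8 and 10.6 FPKM in the knockdown libraries, against 18.6, 19.5 and 19.8 FPKM in the control libraries. The groups did not overlap. SRSF10 fell by 0.80 on the log2(FPKM + 1) scale (standard error 0.038, limma adjusted p = 0.000166), and the exact two-sided permutation test gave p = 0.1, the smallest that 3 against 3 libraries allow. Read from the steps between low FPKM values, the libraries held an estimated 12720000 to 14350000 fragments, and correlations of log2(FPKM + 1) across genes were 0.986 to 0.988 within groups and 0.971 to 0.976 between them. Of 12 hepatocyte or hepatocellular carcinoma markers 3 had at least 1 FPKM in at least 3 libraries. HNF4A averaged 4.65 FPKM in knockdown and 5.30 FPKM in control libraries, whereas TTR, APOA2 and GPC3 were listed at 0 in all 6. ALB averaged 0.624 FPKM in knockdown and 0.150 FPKM in control libraries, and SERPINA1 0.623 and 0.106 FPKM. APOB averaged 0.386 and 0.593 FPKM in knockdown and control libraries, and AFP 0.882 and 0.818 FPKM. The groups were apart for ALB, SERPINA1 and APOB and overlapped for AFP, and none of these was tested. APOA1 averaged 0.0522 and 0.0531 FPKM in knockdown and control libraries, and TF 0.209 and 0.165 FPKM, both overlapping and untested. Most of these liver markers were thus under 1 FPKM in all libraries. The name Huh7 rests on the labels, and the identity of the cells was not tested. The summed level of 7 fibroblast markers was 9.55 to 10.5 FPKM in knockdown and 4.13 to 5.21 FPKM in control libraries, nearly all of it LUM, with COL1A1 at no more than 0.172 FPKM in any library. LUM was called higher in knockdown libraries (limma adjusted p = 0.000928). COL1A1, COL3A1 and DCN, untested and under 1 FPKM, lay above control in all knockdown libraries, whereas COL1A2, PDGFRA and PDGFRB overlapped. For 5 endothelial markers the sums were 9.56 to 10.8 FPKM in knockdown and 5.49 to 6.17 FPKM in control libraries, with VWF, CDH5 and TEK under 0.1 FPKM. KDR averaged 3.09 FPKM in knockdown and 0.502 FPKM in control libraries, and PECAM1 6.85 FPKM in knockdown and 5.28 FPKM in control libraries, both called higher (limma adjusted p 0.00115 and 0.0373). KDR reached 1 FPKM in the knockdown libraries alone, so it was tested only through that group and its call says little. The sums of 6 blood markers were 0.291 to 0.822 FPKM in knockdown and 0.233 to 0.378 FPKM in control libraries, and the part of these markers in the results was not tested.

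Of the 48 genes 45 were tested and 13 of these passed an adjusted p of 0.05 (28.9%, against 25.2% of all tested genes), 10 lower and 3 higher in knockdown cells, while 32 did not pass. CCND1, CCNE2, CDK2, E2F1, E2F2, E2F8, TFDP1, RBL1, CDC25A and SKP2 fell in knockdown cells, and CCNG2, E2F7 and CDC25B rose. In bulk RNA, fewer cells in a phase of the cycle and less RNA of a gene per cell cannot be told apart.

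Gene positions are those of the whole gene in GENCODE 29 on GRCh38. A gene was called when its limma adjusted p, by the Benjamini-Hochberg method over all 12191 tested genes, was under 0.05. Each of the 45 tested genes had at least 1 FPKM in all 6 libraries. CCND2, CDKN1C and LIN37 stayed below the expression filter. Divided by direction, 3 were higher, or 6.67% against 12.6% of all genes, and 10 were lower, or 22.2% against 12.5% of all genes. The count of lower genes was 5 of 45 without knockdown replicate 2, where 982 of all 11895 tested genes were lower. Without knockdown replicate 3 it was 5 of 45, against 964 of 11891. Without control replicate 2 it was 6 of 45, against 1124 of 11975. With no expression filter it was 6 of 48, against 1013 of 32280. The median log2 fold change of the 45 was -0.02, against -0.01 for all tested genes, and the range was -0.58 to 0.43. The groups did not overlap for 20 of the 45 (44.4%, against 42.7% of all tested genes). Knockdown lay above control for 5 genes (11.1%, against 20.6% of all tested genes) and below it for 15 (33.3%, against 22.0%). Over both directions together the shares were near those of all genes, whereas by direction the higher shares were smaller and the lower shares larger than those of all genes.

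**Figure D1:**
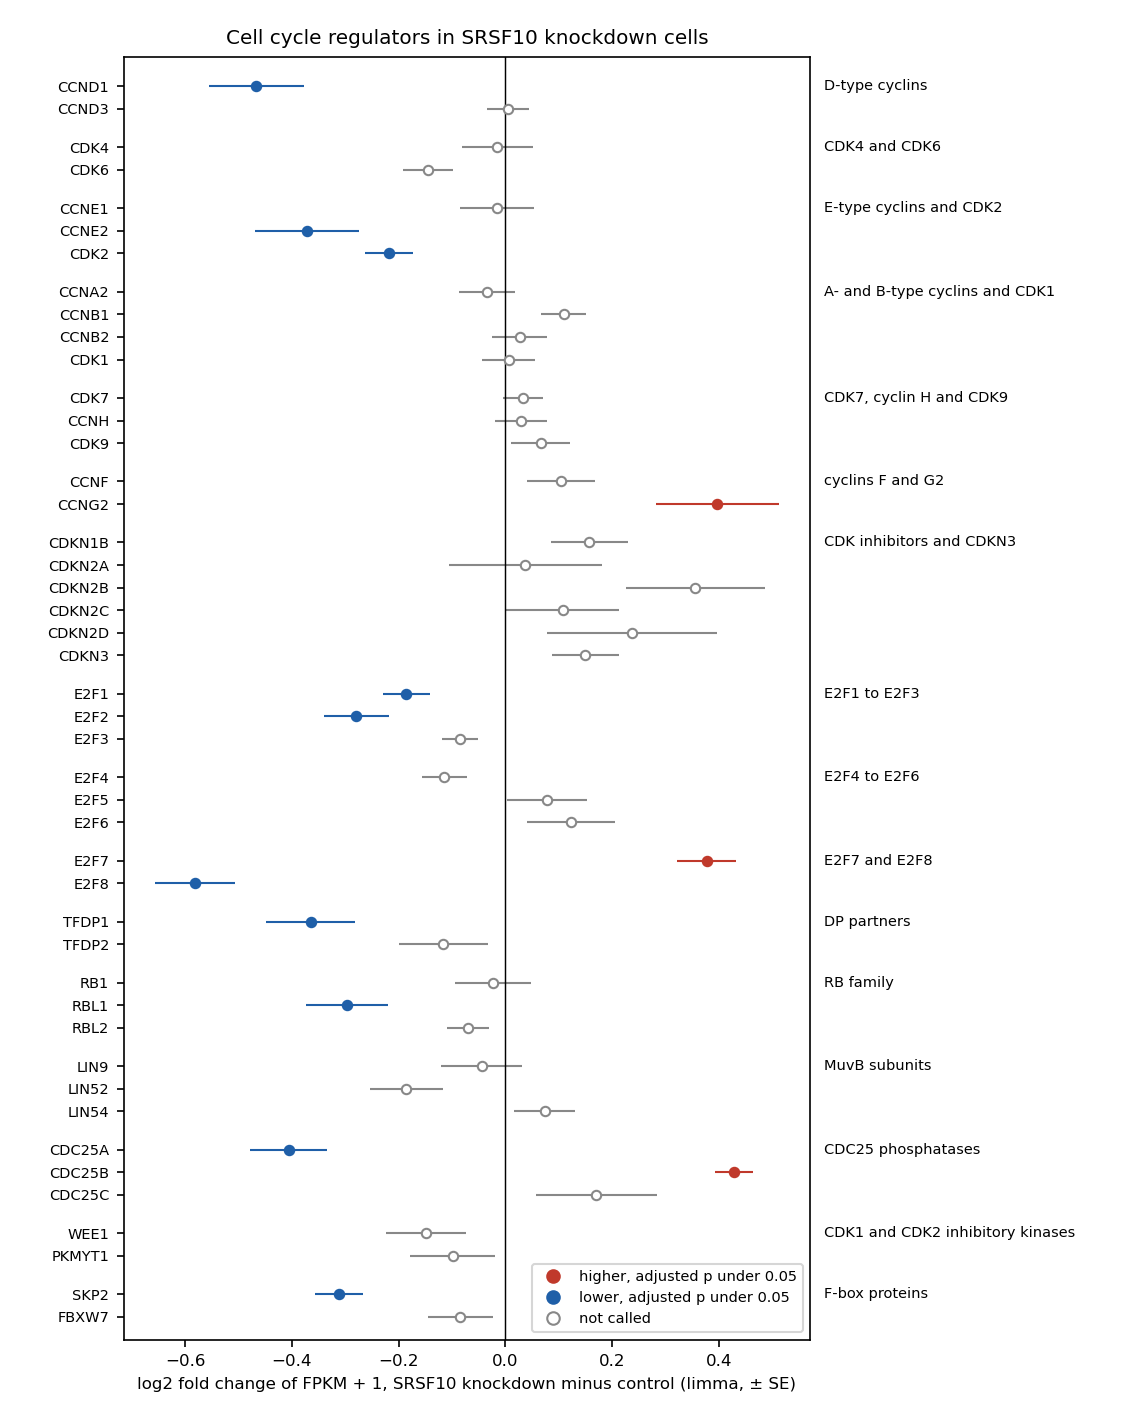
Log2 fold change of FPKM + 1, SRSF10 knockdown minus control, for the 45 tested genes grouped by role, with the limma standard error as bars. Filled points passed an adjusted p of 0.05, 3 of them right of 0 and 10 left of it, and the values run from -0.58 for E2F8 to 0.43 for CDC25B.

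Of the activating factors E2F1, E2F2 and E2F3, which drive S-phase genes, 2 fell in knockdown cells. E2F1 (chr20:33675683-33686404, minus strand) had 19.96, 20.2 and 20.02 FPKM in knockdown libraries, against 22.5, 24.4 and 22.0 FPKM in control libraries. All knockdown values lay below all control values, and the change was 12.7% downward on the means (log2 fold change -0.19, standard error 0.044, limma adjusted p = 0.0234). E2F2 (chr1:23506430-23531220, minus strand) stood at 2.46, 2.47 and 2.49 FPKM in knockdown libraries, against 3.35, 3.34 and 2.97 FPKM in control libraries. Its groups were also apart, with a log2 fold change of -0.28 (standard error 0.061, limma adjusted p = 0.0176). For E2F3 the knockdown values of 14.02, 14.3 and 14.2 FPKM lay below the control values of 15.0, 14.9 and 15.3 FPKM, but the difference of -0.08 did not pass (95% interval -0.16 to -0.0047, limma adjusted p = 0.115). Summed FPKM of E2F1 to E2F3 was 36.7 ± 0.252 in knockdown and 41.3 ± 1.17 in control libraries (SD, n = 3 each), without overlap. Both calls were lost without any 1 knockdown library, where the limma adjusted p was 0.0675 to 0.0743 for E2F1 and 0.0544 to 0.0580 for E2F2. The E2F1 call was also lost with no expression filter (limma adjusted p = 0.0554), and that of E2F2 without control replicate 1 or 2 (limma adjusted p 0.05999 and 0.0545).

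The atypical factors E2F7 and E2F8, which repress E2F targets without a DP partner, went in opposite directions. E2F7 (chr12:77021247-77065580, minus strand) had 16.5, 15.4 and 15.4 FPKM in knockdown libraries, against 12.0, 11.1 and 12.6 FPKM in control libraries. Every knockdown library was above every control library, and E2F7 rose by 0.38 on the log2 scale (standard error 0.055, 95% interval 0.25 to 0.51, limma adjusted p = 0.00405). E2F8 (chr11:19224063-19241620, minus strand) had 4.39, 4.14 and 5.02 FPKM in knockdown libraries, against 7.65, 7.36 and 6.71 FPKM in control libraries. It was the lowest fold change among the 45 genes, at -0.58 (standard error 0.075, 95% interval -0.76 to -0.40, limma adjusted p = 0.00276), again without overlap. The sum of both was 20.3 ± 0.7001 FPKM in knockdown and 19.2 ± 0.612 FPKM in control libraries (SD, n = 3 each), and these sums overlapped. E2F7 made up 77.7 ± 2.04% of that sum in knockdown and 62.2 ± 2.67% in control libraries.

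E2F4 and E2F5, the repressive factors of DREAM, and E2F6, a repressor that does not bind the RB family, gave no call, and E2F4 alone had an unadjusted limma p under 0.05. E2F4 had 14.1, 13.9 and 13.3 FPKM in knockdown libraries, against 15.0, 15.6 and 14.5 FPKM in control libraries. The groups were apart, and the log2 difference was -0.11 (95% interval -0.21 to -0.02, limma adjusted p = 0.0908, and 0.0229 after chromosome centring). E2F4 was called in 1 of 16 other settings, and not after centring on deviations from gene means. E2F5 averaged 3.21 ± 0.235 FPKM in knockdown and 2.99 ± 0.272 FPKM in control libraries (limma adjusted p = 0.499), and E2F6 averaged 3.22 ± 0.393 and 2.87 ± 0.194 FPKM in knockdown and control libraries (limma adjusted p = 0.329, SD, n = 3 each). Both overlapped between the groups.

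TFDP1, which encodes DP1, the dimer partner that most E2Fs need to bind DNA, also fell. It lies at chr13:113584721-113641470 on the plus strand. Its values were 12.0, 14.3 and 13.9 FPKM in knockdown libraries, against 17.6, 19.1 and 16.0 FPKM in control libraries. Knockdown replicate 1 was the lowest and the groups did not overlap (log2 fold change -0.36, standard error 0.083, limma adjusted p = 0.0204). The limma adjusted p was 0.0501 without knockdown replicate 1, 0.0582 without control replicate 1, 0.0531 without control replicate 2 and 0.0696 with no expression filter. TFDP2, which encodes the second DP partner, averaged 2.53 ± 0.342 FPKM in knockdown and 2.82 ± 0.0929 FPKM in control libraries (SD, n = 3 each), with overlap (limma adjusted p = 0.357).

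Promoter sequence was read for E2F letters because several genes of the set are themselves E2F targets. E2F1, E2F2, RBL1 and CDC25A were known as such beforehand, so the counts are a description and support nothing about the calls. RefSeq windows on GRCh38.p14, from 250 bases before to 50 bases after a start site, were present for 39 of the 48 genes. Both strands were searched for the E2F letters TTTCCCGC, TTTCGCGC, TTTGCCGC and TTTGGCGC, for the letters of the cell cycle homology region TTTGAA and TTCGAA, and for CCAAT, and none of these strings contains another. E2F letters were in 5 of the 6 lower genes that have a window (E2F1, E2F2, TFDP1, RBL1 and CDC25A, not SKP2), in 0 of the 3 higher genes, and in 3 of the 29 uncalled genes with one (CDK1, E2F3 and LIN52). The other 4 lower genes have no window. A window need not lie at the start of its gene. The only window of RB1, chr13:48476200-48476499, lies inside the gene, which begins at base 48303726. The letters were in 601 of 8559 tested genes with a window (7.02%). Counted by window, they were in 9 of the 64 windows of the set (14.1%) and in 1164 of all 35116 windows (3.32%). The homology region letters were in 0 of the 6 lower genes, 1 of the 3 higher genes (CDC25B) and 11 of the 29 uncalled genes. The share was 15.6% of tested genes with a window. Counted by window, it was 26.6% of the 64 in the set and 16.4% of all. CCAAT was in 21 of the 39 genes, or 53.8%, against 43.6% of tested genes with a window. By window it was in 39.1% of the 64 and 34.6% of all. The 5 promoters with E2F letters among the lower genes are printed from 150 bases before the start site to 50 from it, 5′ to 3′ on the gene's strand, with the matched letters of either strand in capitals. They lie at chr20:33686336-33686535 (minus strand) for E2F1, chr1:23531184-23531383 (minus) for E2F2, chr13:113584603-113584802 (plus) for TFDP1, chr20:37095948-37096147 (minus) for RBL1 and chr3:48188368-48188567 (minus) for CDC25A.
E2F1: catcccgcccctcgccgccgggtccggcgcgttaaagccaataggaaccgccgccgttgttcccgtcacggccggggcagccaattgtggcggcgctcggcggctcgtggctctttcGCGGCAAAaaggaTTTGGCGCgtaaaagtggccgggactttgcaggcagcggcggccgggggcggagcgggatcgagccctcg
E2F2: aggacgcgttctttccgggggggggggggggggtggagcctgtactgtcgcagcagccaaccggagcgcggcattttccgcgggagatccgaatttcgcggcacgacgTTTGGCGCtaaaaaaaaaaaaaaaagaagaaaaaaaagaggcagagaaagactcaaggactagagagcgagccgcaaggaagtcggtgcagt
TFDP1: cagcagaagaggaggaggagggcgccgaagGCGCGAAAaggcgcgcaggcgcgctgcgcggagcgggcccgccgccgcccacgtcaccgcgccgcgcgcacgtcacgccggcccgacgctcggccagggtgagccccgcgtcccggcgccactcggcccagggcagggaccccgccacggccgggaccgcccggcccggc
RBL1: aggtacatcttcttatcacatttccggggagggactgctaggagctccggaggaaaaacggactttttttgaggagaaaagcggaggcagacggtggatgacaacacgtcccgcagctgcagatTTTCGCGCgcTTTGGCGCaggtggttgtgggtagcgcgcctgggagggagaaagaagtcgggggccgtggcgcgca
CDC25A: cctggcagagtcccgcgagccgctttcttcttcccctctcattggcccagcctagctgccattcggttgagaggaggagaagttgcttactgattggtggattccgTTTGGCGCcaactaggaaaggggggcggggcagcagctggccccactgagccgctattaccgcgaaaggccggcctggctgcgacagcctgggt
E2F1 and RBL1 each hold 2 matches in these bases, whose first letters are at -33 and -20 relative to the start site in E2F1 and at -26 and -16 in RBL1. The single matches begin at -42 in E2F2, -44 in CDC25A and -120 in TFDP1. A match of letters is not a measured binding site, and no binding was measured here.

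In the RB family, the pocket proteins that hold E2F factors in check, 1 of 3 genes was called. RBL1 (chr20:36996349-37095995, minus strand), which encodes p107, had 15.0, 16.6 and 17.1 FPKM in knockdown libraries, against 18.1, 21.1 and 21.5 FPKM in control libraries. The groups were apart, although knockdown replicate 3 came within 1 FPKM of control replicate 1, and the log2 fold change was -0.30 (standard error 0.077, limma adjusted p = 0.0317). The call was lost without any 1 knockdown library, without control replicate 2 or 3 (limma adjusted p 0.0528 to 0.0912 over these 5) and with no expression filter (limma adjusted p = 0.0971). RB1, the retinoblastoma gene, was low in all libraries, at 1.63 ± 0.0951 FPKM in knockdown and 1.67 ± 0.0672 FPKM in control libraries (SD, n = 3 each), and its 95% interval of the log2 difference was -0.19 to 0.15. RBL2, which encodes p130, had 10.6, 11.03 and 11.2 FPKM in knockdown libraries, against 11.8, 11.3 and 11.5 FPKM in control libraries, apart but not called (limma adjusted p = 0.243, and 0.0374 after chromosome centring). RBL2 was called in 1 of 16 other settings, and not after centring on deviations from gene means. RBL1 gave the largest part of the summed RB family level, 56.3 ± 0.962% in knockdown and 60.3 ± 2.69% in control libraries.

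None of the tested LIN genes, which encode subunits of MuvB, the core shared by DREAM and the activating MYB-MuvB complex, was called. Of the 3 tested, 1, LIN52, had an unadjusted limma p under 0.05. RBBP4, another MuvB subunit, was counted in a separate list and was called lower (log2 fold change -0.17, limma adjusted p = 0.0434). LIN52, which bridges MuvB to p130 or p107, had 2.44, 2.81 and 2.80 FPKM in knockdown libraries, against 3.15, 3.03 and 3.38 FPKM in control libraries, and the log2 difference of -0.19 did not pass (limma adjusted p = 0.0937). LIN9 averaged 6.81 ± 0.644 FPKM in knockdown and 7.05 ± 0.534 FPKM in control libraries, and LIN54, the subunit that binds DNA, 7.27 ± 0.273 and 6.86 ± 0.451 FPKM in knockdown and control libraries (SD, n = 3 each). LIN37 stayed under 1 FPKM in all 6 libraries, at 0.417 to 0.694 FPKM in knockdown and 0.307 to 0.592 FPKM in control libraries, and was not tested.

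Among the D-type cyclins, which couple growth signals to CDK4 and CDK6, CCND1 fell and CCND3 did not pass the test. CCND1 (cyclin D1, chr11:69641087-69654474, plus strand) had 42.5, 46.4 and 42.5 FPKM in knockdown libraries, against 64.6, 66.2 and 52.7 FPKM in control libraries. All knockdown values lay below control, where replicate 3 was the lowest, and the level was 28.4% lower on the means (log2 fold change -0.47, standard error 0.089, 95% interval -0.68 to -0.26, limma adjusted p = 0.0106). CCND3 had 20.5, 20.6 and 21.6 FPKM in knockdown libraries, against 20.4, 21.6 and 20.5 FPKM in control libraries, with a 95% interval of -0.09 to 0.10 around a log2 difference of 0.01 (limma adjusted p = 0.942). CCND2 was listed at 0, 0.0102 and 0.0546 FPKM in knockdown libraries and at 0 in all 3 control libraries, so nearly all D-type cyclin RNA came from the other two genes. The share of CCND1 in the summed level was 67.6 ± 1.45% in knockdown and 74.5 ± 2.15% in control libraries.

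Neither partner kinase of the D-type cyclins was called, and 1, CDK6, had an unadjusted limma p under 0.05. CDK4 had 43.1, 45.5 and 45.6 FPKM in knockdown libraries, against 45.8, 49.2 and 40.9 FPKM in control libraries (log2 difference -0.01, 95% interval -0.17 to 0.14). CDK6 had 15.4, 13.99 and 14.3 FPKM in knockdown libraries, against 15.7, 16.4 and 16.6 FPKM in control libraries. Its groups were narrowly apart, and the difference of -0.15 missed the threshold (95% interval -0.26 to -0.03, limma adjusted p = 0.0635). CDK6 was called lower without knockdown replicate 1 (limma adjusted p = 0.0494), with a filter of 5 FPKM (0.0486) and after chromosome centring (0.0131, and 0.0463 on deviations). Exons of TSPAN31 cover 43.2% of the exon bases of CDK4, and TSPAN31 averaged 2.08 FPKM in knockdown and 1.70 FPKM in control libraries.

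CCNE2 and CDK2 fell in the next step of the cycle, the E-type cyclins with their kinase, while CCNE1 did not pass the test. CCNE2 (cyclin E2, chr8:94879770-94896678, minus strand) had 4.99, 4.76 and 3.95 FPKM in knockdown libraries, against 5.54, 6.94 and 6.13 FPKM in control libraries. The groups were apart by less than 1 FPKM, and the log2 fold change was -0.37 (standard error 0.098, limma adjusted p = 0.0330). Without knockdown replicate 2, knockdown replicate 3, control replicate 2 or control replicate 3 the limma adjusted p was 0.0675 to 0.0849, and with no expression filter it was 0.104. Of the exon bases of CCNE2 37.1% overlap other genes, among them INTS8, which averaged 19.9 FPKM in knockdown and 19.3 FPKM in control libraries (limma adjusted p = 0.725). CCNE1 had 10.4, 9.10 and 10.5 FPKM in knockdown libraries, against 9.35, 10.7 and 10.3 FPKM in control libraries, with full overlap (95% interval of the log2 difference -0.18 to 0.15). CDK2 (chr12:55966769-55972784, plus strand), the kinase that both E-type cyclins activate, had 13.3, 12.8 and 12.3 FPKM in knockdown libraries, against 15.6, 14.9 and 14.6 FPKM in control libraries. Its groups were clearly apart, with a log2 fold change of -0.22 (standard error 0.045, limma adjusted p = 0.0140), and the limma adjusted p was 0.0503 without knockdown replicate 2 and 0.0542 without knockdown replicate 3.

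**Figure D2:**
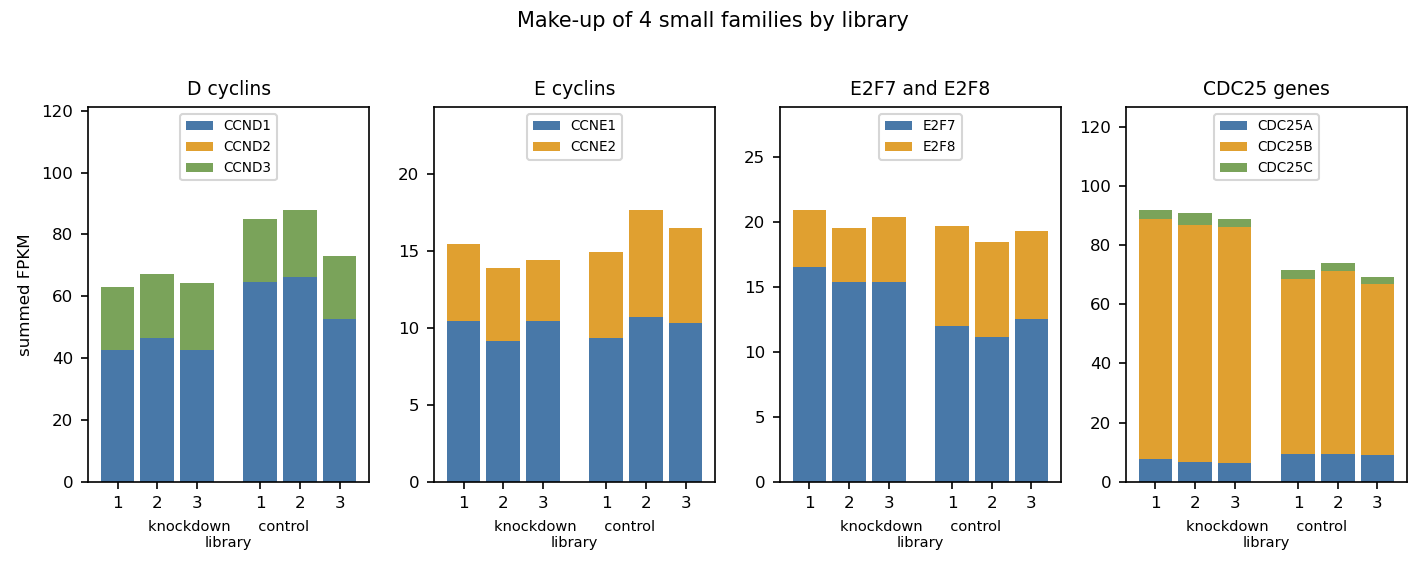
Summed FPKM (y axis) of 4 small gene families in each knockdown library, left, and each control library, right, stacked by gene. The D-type cyclin bars average 64.7 FPKM in knockdown and 82.0 FPKM in control libraries and the CDC25 bars 90.4 and 71.5 FPKM in knockdown and control libraries, whereas the E2F7 plus E2F8 bars overlap in height and differ in make-up.

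The cyclins and kinase of mitotic entry had some of the highest FPKM among the 48 genes. None was called, and 1 of the 4, CCNB1, had an unadjusted limma p under 0.05. CCNB1 (cyclin B1) had 57.6, 56.6 and 56.7 FPKM in knockdown libraries, against 54.0, 54.7 and 49.7 FPKM in control libraries. These were apart, with knockdown above control, but the log2 difference of 0.11 did not pass (95% interval 0.01 to 0.21, limma adjusted p = 0.111). CCNB2 averaged 31.9 ± 1.147 FPKM in knockdown and 31.3 ± 1.89 FPKM in control libraries, and CCNA2 (cyclin A2) 38.9 ± 1.35 and 39.9 ± 2.43 FPKM in knockdown and control libraries (SD, n = 3 each). CDK1 had 28.2, 28.1 and 26.5 FPKM in knockdown libraries, against 28.6, 28.2 and 25.7 FPKM in control libraries. The 95% intervals of the log2 difference were -0.16 to 0.09 for CCNA2, -0.10 to 0.15 for CCNB2 and -0.11 to 0.13 for CDK1, and all 3 genes overlapped between the groups.

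CDK7 and CCNH, of the CDK-activating kinase, and CDK9, the kinase of transcription elongation, gave no call, and 0 of the 3 had an unadjusted limma p under 0.05. CDK7 had 9.81, 9.64 and 9.66 FPKM in knockdown libraries, against 9.24, 9.57 and 9.56 FPKM in control libraries, a log2 difference of 0.03 (limma adjusted p = 0.562). CCNH averaged 3.99 ± 0.145 FPKM in knockdown and 3.88 ± 0.0327 FPKM in control libraries, and CDK9 15.6 ± 0.858 and 14.8 ± 0.768 FPKM in knockdown and control libraries (SD, n = 3 each). CCNF, which encodes an F-box cyclin that binds no CDK, averaged 8.91 ± 0.403 FPKM in knockdown and 8.23 ± 0.652 FPKM in control libraries (limma adjusted p = 0.280). CCNG2 (cyclin G2, chr4:77157151-77433388, plus strand), linked to cell cycle arrest, had 2.67, 2.26 and 1.995 FPKM in knockdown libraries, against 1.51, 1.23 and 1.80 FPKM in control libraries. It rose by 0.40 on the log2 scale (standard error 0.12, limma adjusted p = 0.0458), with knockdown replicate 3 and control replicate 3 close together. This call was the least secure of the 13, and it held in 6 of 15 other settings, lost in each fit without 1 knockdown library and without control replicate 1 or 2 (limma adjusted p 0.0565 to 0.134). The CCNG2 call was also lost with quantile normalization (limma adjusted p = 0.0560), rescaling without mitochondrial genes (0.0519) and no expression filter (0.138).

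No CDK inhibitor among the 48 genes was called in either direction. All 6 tested genes of the inhibitor group, CDKN3 included, had higher mean FPKM in knockdown than in control libraries. Of all 12191 tested genes, 6410 had a log2 fold change below 0. The untested CDKN1C was lower on the means in knockdown libraries. Outside the 48, CDKN1A was lower on the means without a call, and the CDK9 inhibitor HEXIM1 was called lower. An unadjusted limma p under 0.05 was reached by 2 of the 6, CDKN2B and CDKN3. CDKN2B was called higher without control replicate 3 (limma adjusted p = 0.0312) and CDKN2C without control replicate 2 (limma adjusted p = 0.0456). CDKN2B, which encodes p15, an inhibitor of CDK4 and CDK6, had 7.30, 6.57 and 8.24 FPKM in knockdown libraries, against 5.55, 4.503 and 6.70 FPKM in control libraries. Control replicate 3 lay above knockdown replicate 2, and the log2 difference of 0.36 did not pass (95% interval 0.05 to 0.66, limma adjusted p = 0.0907). CDKN1B, which encodes p27, had 18.2, 15.8 and 18.6 FPKM in knockdown libraries, against 16.3, 14.4 and 16.0 FPKM in control libraries, overlapping, with a log2 difference of 0.16 (limma adjusted p = 0.164). CDKN2A, the p16 and ARF gene, had 2.74, 2.68 and 2.68 FPKM in knockdown libraries, against 3.20, 1.84 and 2.93 FPKM in control libraries, where replicate 2 was low. CDKN2C, which encodes p18, averaged 7.04 ± 0.400 FPKM in knockdown and 6.51 ± 1.154 FPKM in control libraries, and CDKN2D, which encodes p19, 2.37 ± 0.287 and 1.90 ± 0.581 FPKM in knockdown and control libraries (SD, n = 3 each). CDKN2D rested on as few as 25 estimated fragments in a library, the fewest of any tested gene in the set. CDKN3, a phosphatase of CDKs, averaged 13.6 ± 1.08 FPKM in knockdown and 12.1 ± 0.516 FPKM in control libraries (SD, n = 3 each, limma adjusted p = 0.132). CDKN1C, which encodes p57, was untested at 0.375, 0.652 and 0.569 FPKM in knockdown libraries, against 0.730, 1.27 and 1.04 FPKM in control libraries. Its groups were apart, and with no expression filter the log2 difference was -0.39 (limma adjusted p = 0.215).

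Of the 3 CDC25 phosphatases, which remove the inhibitory phosphates of CDK1 and CDK2, CDC25B rose and CDC25A fell. CDC25B (chr20:3786772-3806121, plus strand), which starts CDK1 activation before mitosis, had 81.2, 80.4 and 80.05 FPKM in knockdown libraries, against 59.3, 62.0 and 57.6 FPKM in control libraries. The groups were far apart for their spread, and CDC25B rose by 0.43 on the log2 scale (standard error 0.036, 95% interval 0.34 to 0.51, limma adjusted p = 0.000679), the smallest adjusted p among the 45 genes. CDC25A (chr3:48157146-48188402, minus strand), which acts at entry into S phase, had 7.65, 6.49 and 6.195 FPKM in knockdown libraries, against 9.36, 9.26 and 9.19 FPKM in control libraries. Knockdown replicate 1 was the closest to control, the groups did not overlap, and the log2 fold change was -0.41 (standard error 0.072, limma adjusted p = 0.00818). CDC25A lies on chromosome 3, where 315 of 718 tested genes were lower and 34 higher, with a median log2 fold change of -0.19. After each chromosome was centred the value for CDC25A was -0.19 (limma adjusted p = 0.0679), and with centring on deviations from gene means, added after seeing the data, it was -0.21 (limma adjusted p = 0.0799), so the call was lost in both. CDC25C, the mitotic CDC25, had 2.89, 3.85 and 2.63 FPKM in knockdown libraries, against 2.79, 2.66 and 2.45 FPKM in control libraries, with overlap (limma adjusted p = 0.322). CDC25A made up 7.49 ± 0.745% of the summed CDC25 level in knockdown and 12.97 ± 0.390% in control libraries, and CDC25B 89.1 ± 0.875% and 83.3 ± 0.459% in knockdown and control libraries.

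The kinases that place those phosphates were not called, and neither had an unadjusted limma p under 0.05. WEE1 had 8.44, 7.64 and 7.24 FPKM in knockdown libraries, against 9.55, 8.10 and 8.52 FPKM in control libraries (log2 difference -0.15, 95% interval -0.33 to 0.03). PKMYT1 averaged 3.72 ± 0.138 FPKM in knockdown and 4.07 ± 0.488 FPKM in control libraries (SD, n = 3 each, limma adjusted p = 0.417).

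SKP2, the F-box protein that directs the CDK inhibitor p27 to degradation, fell. The gene (chr5:36151989-36184319, plus strand) had 9.73, 9.07 and 9.37 FPKM in knockdown libraries, against 12.4, 11.5 and 11.8 FPKM in control libraries. Every knockdown library was lower than every control library, by 21.1% on the means (log2 fold change -0.31, standard error 0.045, 95% interval -0.42 to -0.21, limma adjusted p = 0.00396). FBXW7, the F-box protein that directs cyclin E to degradation, averaged 3.08 ± 0.117 FPKM in knockdown and 3.32 ± 0.219 FPKM in control libraries (SD, n = 3 each, limma adjusted p = 0.363).

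**Figure D3:**
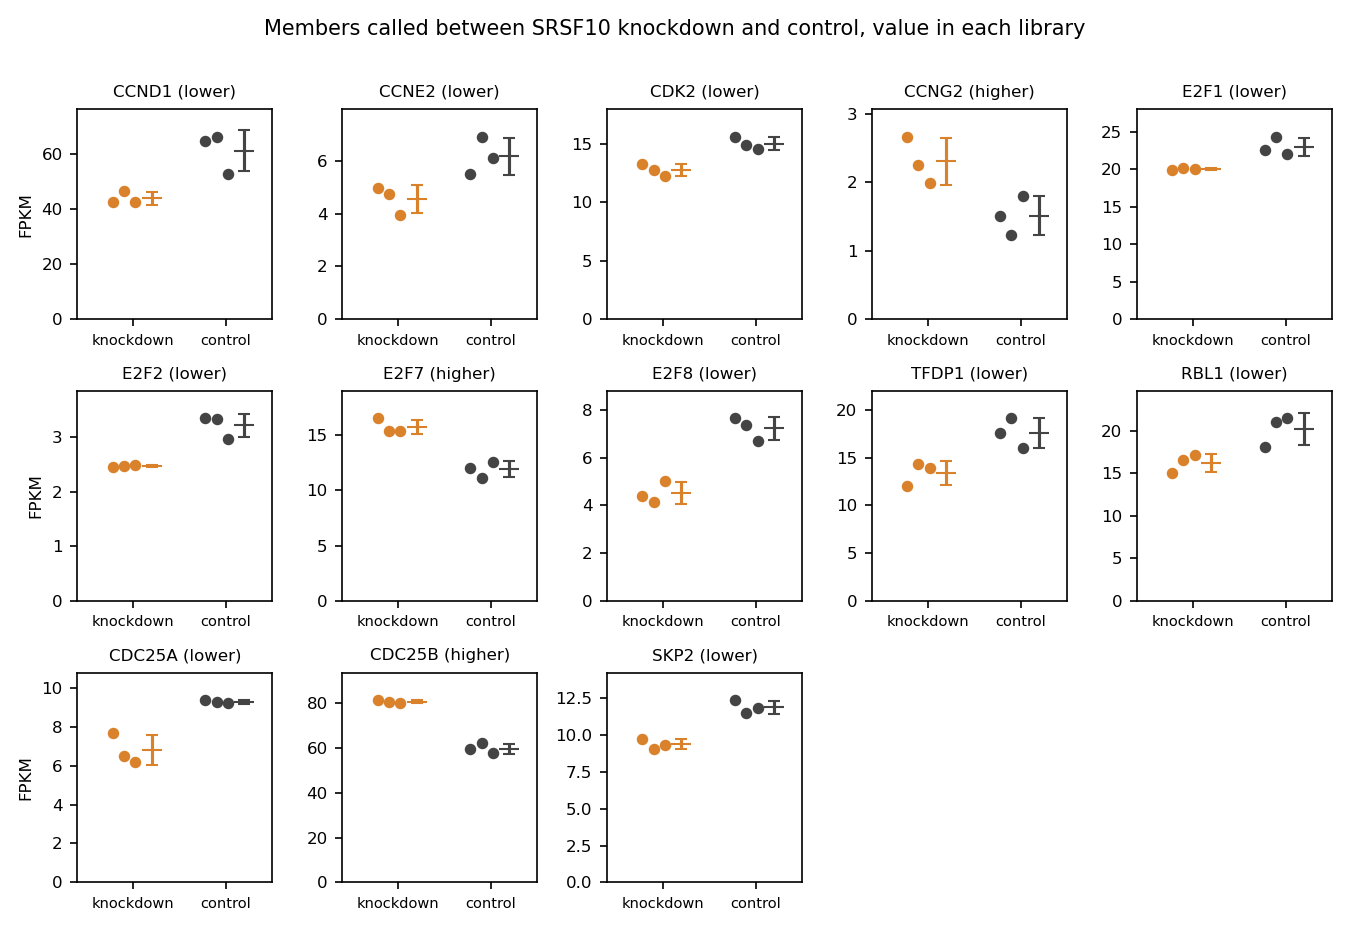
FPKM (y axis) of the 13 called genes in each knockdown library, left, and each control library, right, with mean and SD bars over 3 libraries. In every panel the points of the groups do not overlap, and the gap is narrow for CCNG2, CCNE2 and RBL1 and wide for CDC25B and E2F8.

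The other genes of the pathway were counted in lists that do not contain the 48, chosen with earlier results of these data known. Of 30 textbook E2F targets of G1/S, the replication and nucleotide synthesis genes, 25 fell and 0 rose in limma (83.3% lower, against 12.5% of all tested genes, and 0 higher at an unadjusted p under 0.05), with a median log2 fold change of -0.28 and 29 of 30 below 0. MCM2, a subunit of the replicative helicase, averaged 37.2 ± 0.777 FPKM in knockdown and 50.9 ± 0.982 FPKM in control libraries, and PCNA, the polymerase clamp, 146 ± 5.05 and 189.7 ± 2.95 FPKM in knockdown and control libraries (SD, n = 3 each). CDC45, which loads onto that helicase, averaged 14.02 ± 0.219 FPKM in knockdown and 18.7 ± 0.468 FPKM in control libraries, and RFC4, of the clamp loader, 17.8 ± 0.354 and 24.1 ± 0.914 FPKM in knockdown and control libraries (SD, n = 3 each). MCM2 and RFC4 lie on chromosome 3. Of 26 tested targets of DREAM and FOXM1 in G2/M, 3 rose and 2 fell (19.2% called, against 25.2% of all tested genes), with a median of 0.04. AURKA, a spindle kinase, averaged 49.7 ± 0.468 FPKM in knockdown and 41.1 ± 0.725 FPKM in control libraries, and TOP2A, a topoisomerase, 87.2 ± 1.35 and 105 ± 2.70 FPKM in knockdown and control libraries (SD, n = 3 each). ANLN and UBE2C rose, and BUB1B fell. UBE2C and CDC20 are also counted among the ubiquitin ligase genes.

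**Figure D4:**
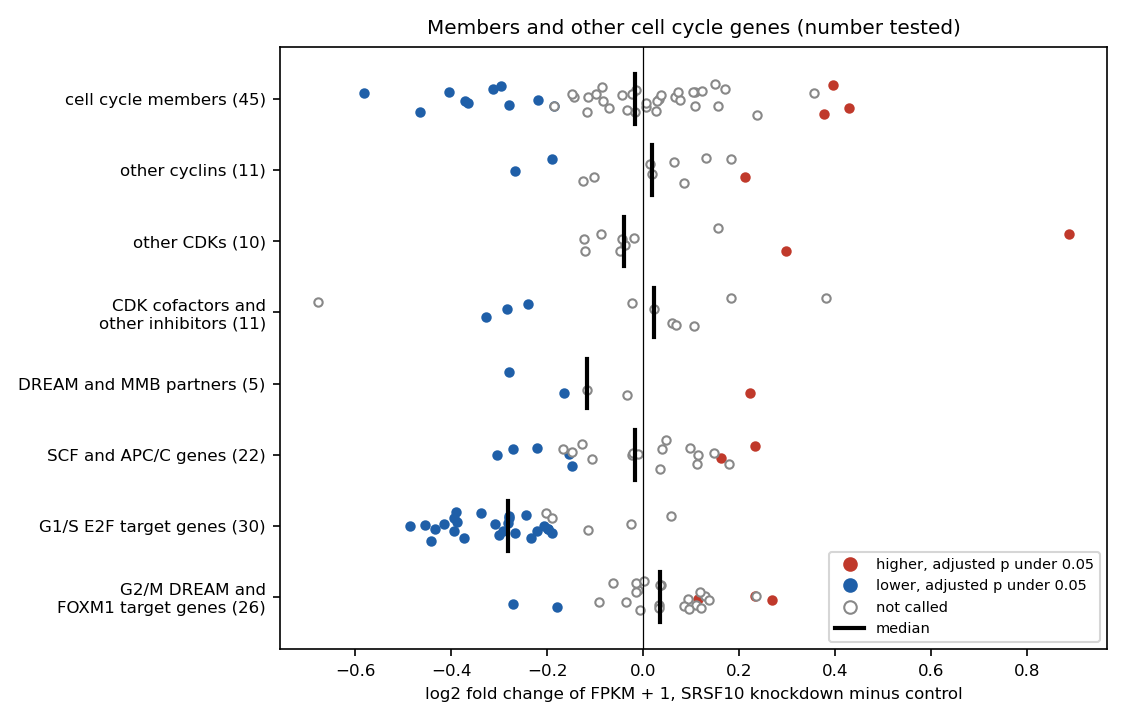
Log2 fold change of FPKM + 1, SRSF10 knockdown minus control, for the 45 tested genes and the tested genes of 7 other cell cycle lists, with filled points for called genes and a bar at each median. Of the G1/S E2F targets 29 of 30 sit left of 0, with a median of -0.28, and the other lists have medians from -0.12 to 0.04.

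The partners of DREAM and MYB-MuvB gave 1 higher and 2 lower of 5, or 60.0% called against 25.2% of all tested genes. MYBL2 (B-MYB), the activating partner, averaged 73.6 ± 1.76 FPKM in knockdown and 89.6 ± 5.003 FPKM in control libraries (SD, n = 3 each), a log2 fold change of -0.28 (limma adjusted p = 0.00677). RBBP4, a histone-binding MuvB subunit, fell to 10.3 FPKM in knockdown libraries, against 11.6 FPKM in control libraries, and MYBL1 (A-MYB) rose to 10.5 FPKM in knockdown libraries, against 8.86 FPKM in control libraries. FOXM1 averaged 57.8 ± 1.25 FPKM in knockdown and 59.2 ± 0.912 FPKM in control libraries (SD, n = 3 each, limma adjusted p = 0.497). Among 22 genes of the SCF and APC/C ubiquitin ligases 2 rose (UBE2C and UBE2S, ubiquitin-conjugating enzymes of the APC/C) and 5 fell (ANAPC5, ANAPC7, CDC16, CDC23 and the APC/C inhibitor FBXO5), or 31.8% against 25.2% of all tested genes, with a median of -0.02.

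Of 16 other cyclins 11 were tested, 1 rose and 2 fell (27.3% called, against 25.2% of all tested genes). CCNYL1 averaged 15.8 FPKM in knockdown and 13.5 FPKM in control libraries. CCNL1, a splicing-linked cyclin on chromosome 3, averaged 15.9 FPKM in knockdown and 19.4 FPKM in control libraries, and CCNY, a membrane-bound cyclin, 7.998 FPKM in knockdown and 9.26 FPKM in control libraries. Of 15 other CDKs 10 were tested, 2 rose and 0 fell in limma, and at an unadjusted p under 0.05 there were 3 higher and 1 lower. CDK14, a partner of CCNY, averaged 2.12 ± 0.0802 FPKM in knockdown and 0.685 ± 0.0940 FPKM in control libraries (SD, n = 3 each), and it passed the expression filter only through the knockdown group. CDK19, a Mediator kinase, averaged 3.87 FPKM in knockdown and 2.97 FPKM in control libraries. CDK11A and CDK11B are near-identical copies, and their values are uncertain.

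Of 12 CDK cofactors, assembly factors and further inhibitors 11 were tested, and 0 rose and 3 fell in limma. That is 27.3% called, against 25.2% of all tested genes, with a median of 0.02. At an unadjusted limma p under 0.05 there were 2 higher and 4 lower. CDC37, the chaperone partner that loads CDK4, averaged 45.8 ± 0.902 FPKM in knockdown and 54.2 ± 1.45 FPKM in control libraries (SD, n = 3 each, limma adjusted p = 0.00381). HEXIM1, an inhibitor of CDK9, averaged 12.4 FPKM in knockdown and 15.8 FPKM in control libraries, and CDK2AP1, a CDK2-associated protein, 13.4 and 16.6 FPKM in knockdown and control libraries. CDKN1A, which encodes p21 and was singled out after its values were seen, had 7.12, 11.03 and 8.01 FPKM in knockdown libraries, against 16.8, 17.7 and 9.83 FPKM in control libraries. Control replicate 3 lay among the knockdown values, and the log2 difference of -0.68 was not called (95% interval -1.23 to -0.12, limma adjusted p = 0.0774).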

How the data were processed

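Total RNA of 6 libraries was sequenced. Per the submitters' processing notes, the tools included FastQC 0.11.9 with Trim Galore 0.6.5-1, on build GRCh38. Not given in the sources used here are the aligner, the counter, the annotation release and the strand setting. Deposited by the authors were FPKM values per gene, not counts, so a count test was replaced by limma 3.58.1 in R 4.3.3. The model used a trend on mean expression, log2(FPKM + 1) with a pseudocount of 1 FPKM, and the group as its only term. Genes with at least 1 FPKM in at least 3 libraries (12191) were tested and adjusted together. Counts at an unadjusted limma p under 0.05 are given for the set and the lists alone, without the share of all tested genes. Fold changes on this scale understate the change of low genes. Each sample's own file held values identical to the table of the series in 60623 of 60623 genes. Mitochondrial genes took 27.5% to 29.7% of the summed FPKM. Depth was estimated from low values, of which 87.8% to 88.4% lay within 0.05 of a whole fragment. It limits precision: the counting coefficient of variation ran from 1.57% for CDC25B to 15.2% for CDKN2D. Exon overlaps come from GENCODE 29, and exons of 21 of the 48 genes overlap another gene, covering 37.1% of exon bases in CCNE2, 16.8% in CDK2, 10.3% in CCND1, 3.54% in RBL1 and 0.169% in E2F8 among the called genes. Among tested but uncalled genes the share was 43.2% in CDK4, 31.6% in PKMYT1, 22.3% in CCNH, 18.6% in E2F5 and 18.2% in RBL2. RASA1, which overlaps CCNH, averaged 7.85 FPKM, and C8orf59, which overlaps E2F5, averaged 10.9 FPKM. Both lay above the level of the gene that they overlap. Without a known strand setting, overlapping genes cannot be told apart.

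The genes named are the 48, SRSF10, up to 4 called genes in each direction of each list by adjusted p, and the markers. ANAPC7, FOXM1, CDKN1A and the overlapping genes were named after their values were seen. The 48 genes and the lists were chosen with earlier results of these data known. The model was run on values simulated with independent normal noise of its own fitted variances. That run cannot show whether the model suits these libraries. Alternatives covered the pseudocount, the filter, 3 scalings, the trend, chromosome centring, a replicate block and leaving out each library. Same-numbered knockdown and control libraries did not deviate together, so replicate numbers were not treated as pairs.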

Additional observations from a re-analysis of the deposited data

How the results depend on the processing

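Under 16 alternatives, 1 of them listed after seeing the data, CCND1, E2F7, E2F8, CDC25B and SKP2 were called in every fit, with limma adjusted p of 0.00205 to 0.0430, 0.00168 to 0.0178, 0.0011 to 0.0151, 0.00021 to 0.00616 and 0.00203 to 0.0200 in that order. None of the 13 called genes turned direction. Of the 32 uncalled genes CDK6, CDKN2B, CDKN2C, E2F4 and RBL2 were called in at least 1 fit. With no expression filter, 1013 of 32280 tested genes were lower in all and 6 of the 48. Leaving out 1 library left 11887 to 11997 genes tested, 45 of the 48 among them. These fits gave 894 to 1352 genes higher and 964 to 1327 lower, and 2 to 4 of the 48 higher and 5 to 8 lower. Genes higher numbered 952, 943 and 894, and genes lower 1015, 982 and 964, without knockdown replicate 1, 2 and 3. With the replicate number as a block, 1193 genes were higher and 1146 lower, 3 and 8 of the 48, and the calls of CCNE2, E2F2 and CCNG2 were lost (limma adjusted p 0.0512, 0.0503 and 0.0823) while CDKN2B was called higher (0.0195). The numbers do not pair the libraries, since correlations of same-numbered deviations were 0.016, 0.057 and -0.071. Differences near 0 changed sign for uncalled genes only. Over the fits without 1 library, the log2 differences ran from -0.0169 to 0.0290 for CCND3, -0.0848 to 0.0448 for CDK4, -0.0666 to 0.0436 for CCNE1, -0.00555 to 0.0737 for CCNB2, -0.0401 to 0.0347 for CDK1, -0.136 to 0.147 for CDKN2A and -0.111 to 0.00993 for LIN9. Quantile normalization gave CDK4 0.00266. Chromosome centring gave CCNB2 -0.0191, CDK7 -0.0206, CCNH -0.0250 and TFDP2 0.0963, and TFDP2 was 0.0761 when centred on deviations. The cause was not tested. Depth limits CDKN2D, CDC25C, RB1 and LIN52 most among tested genes, with counting coefficients of variation of 15.2%, 8.78%, 8.36% and 8.28%.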
